A study of Rattus norvegicus with 9 samples.

Results

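The genes described here were the metallothioneins and a set of zinc transporters in rat spinal cord. They were picked by name. The names were Mt1, Mt1a, Mt1m, Mt2A and Mt3 for the metallothioneins, Slc30a1 and Slc30a10 for zinc exporters, and Slc39a12 and Slc39a14 for zinc importers. Of these 9 symbols, 8 were row names in a table of 34890 loci, 4 of them metallothioneins and 4 of them transporters. Mt1a was not a row name, and RefSeq gives it as a synonym of Mt1. The mitochondrial genes whose symbols begin with Mt- were not included.

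The tissue was bulk lumbar spinal cord (L3-L6) of male wild-type Sprague Dawley rats, taken from the operated side, with 9 samples in 3 groups of 3. JA rats had a sham operation and saline. SNI rats had spared nerve injury, a model of neuropathic pain in which some branches of the sciatic nerve are cut and one is left, and saline. PLM rats had the same injury and received paeoniflorin at 20.65 mg/mL with liquiritin, for which the labels of the 3 samples read 3.98, 3.99 and 3.100 mg/mL. The methods describe a single dose for the whole group, equal to the label of replicate 1. Both compounds are plant glycosides, and treatment and saline were given by mouth. SNI against JA asked what the injury did, and PLM against SNI asked what the treatment did in injured animals. The same SNI samples stood in both comparisons, so these are not independent. Age was not given in the sources used here.

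Metallothioneins are small cysteine-rich proteins that bind zinc and copper ions. Mt1 and Mt2A are made in many tissues, in the nervous system mainly by astrocytes, and are induced by metals, glucocorticoids and injury. Mt3 is the brain-enriched form and does not respond to metals as the others do. Transporters of the Slc30 (ZnT) family move zinc out of the cytosol, and those of the Slc39 (ZIP) family move it in. The transcription factor Mtf1 binds metal response elements in the promoters of Mt1, Mt2A and Slc30a1.

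Expression was given as TPM, the share of a sample's transcripts scaled by transcript length to a fixed total, so that levels of different genes could be set side by side. Mt3 stood far above the other members, with a mean of 2149 TPM over the 9 samples and rank 32 among all loci. Mt2A followed at 335.0 TPM and Mt1 at 59.8 TPM. The transporters were lower: the mean was 9.31 TPM for Slc39a12, 8.72 for Slc30a10, 7.36 for Slc30a1 and 3.55 for Slc39a14. The ranges of Mt3, Mt2A and Mt1 over the 9 samples did not overlap each other, while those of Slc39a12, Slc30a10 and Slc30a1 did. Mt1m was listed at 0 in 8 samples and at 0.55 TPM in PLM replicate 3. It was below the filter of a mean of at least 1 TPM, which left 7 members for testing. RefSeq lists Mt1m as a pseudogene and other pseudogene copies of Mt1 exist, so reads of such near-identical sequences may have been split between loci, and the levels of Mt1, Mt2A and Mt1m are uncertain to that degree. Depth is unknown, because TPM does not keep it.

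**Figure D1:**
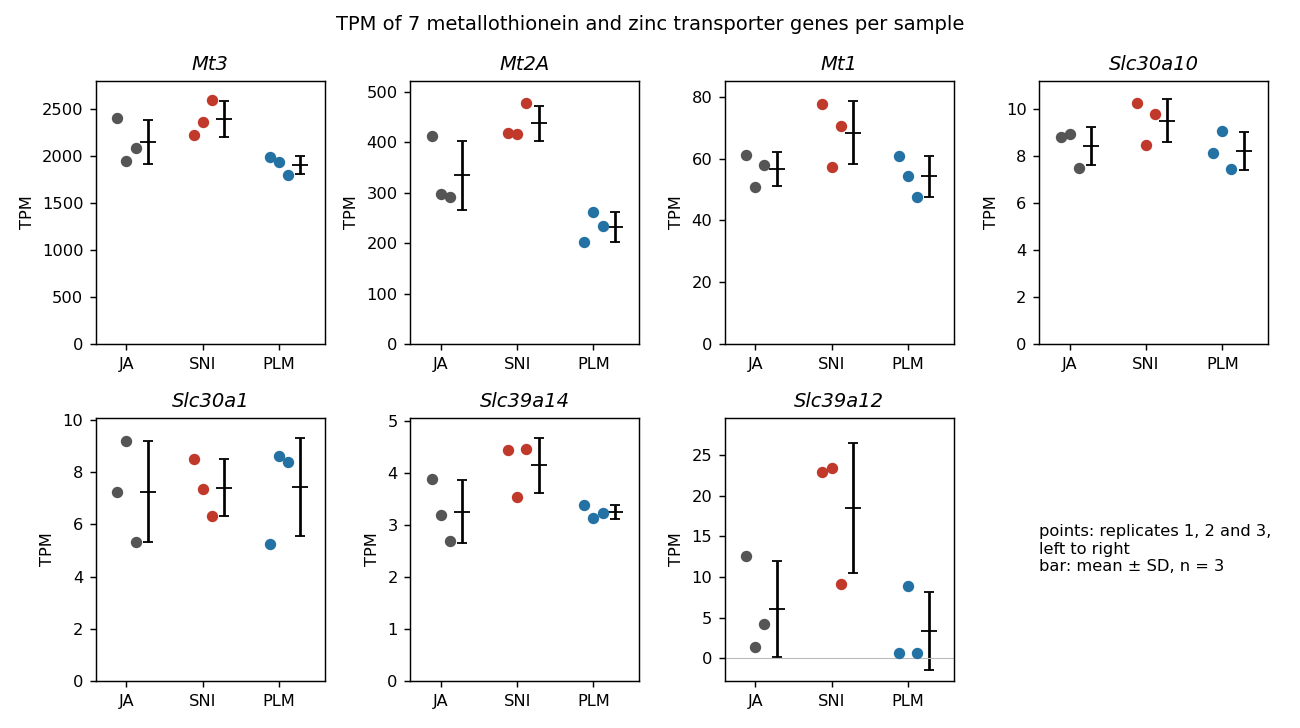
Level of each of the 7 tested members in TPM (vertical axes) in the 3 JA, 3 SNI and 3 PLM samples, where points are replicates 1 to 3 from left to right and bars are the mean ± SD. Mt2A was lower in every PLM sample than in any SNI or JA sample, and Slc39a12 ranged from 0.62 to 23.36 TPM.

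The promoters are shown because the metal response element is the best known control sequence of metallothionein genes. The RefSeq table of promoters (build GRCr8) matched 5 of the 8 members. Each sequence is the 250 bases before the annotated start, written 5′ to 3′ on the gene's own strand. Capitals mark the metal response element core, TGCACNC or TGCGCNC, on either strand, and no matches overlapped. Mt1, Mt2A and Mt3 lie near each other on chromosome 19.

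The interval for Mt1 is chr19:10832976-10833225 (minus strand), with 6 matches.
Mt1: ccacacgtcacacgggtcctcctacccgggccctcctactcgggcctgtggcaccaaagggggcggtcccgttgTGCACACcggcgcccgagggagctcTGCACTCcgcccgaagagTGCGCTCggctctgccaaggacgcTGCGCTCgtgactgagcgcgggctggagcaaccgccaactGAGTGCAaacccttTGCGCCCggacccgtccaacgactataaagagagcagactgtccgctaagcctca
The interval for Mt2A is chr19:10838709-10838958 (minus strand), with 4 matches.
Mt2A: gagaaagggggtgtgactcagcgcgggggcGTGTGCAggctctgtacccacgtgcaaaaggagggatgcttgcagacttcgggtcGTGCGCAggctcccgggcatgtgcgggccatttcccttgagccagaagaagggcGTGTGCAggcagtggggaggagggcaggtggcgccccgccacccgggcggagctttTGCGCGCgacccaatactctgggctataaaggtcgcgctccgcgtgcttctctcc
The interval for Mt3 is chr19:10856081-10856330 (minus strand), with 3 matches.
Mt3: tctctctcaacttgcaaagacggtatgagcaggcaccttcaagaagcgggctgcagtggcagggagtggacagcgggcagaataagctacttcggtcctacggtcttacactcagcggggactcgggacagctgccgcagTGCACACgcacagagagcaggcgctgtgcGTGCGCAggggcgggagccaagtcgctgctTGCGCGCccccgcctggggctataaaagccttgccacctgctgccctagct
The interval for Slc30a1 is chr13:106021769-106022018 (plus strand), with 2 matches.
Slc30a1: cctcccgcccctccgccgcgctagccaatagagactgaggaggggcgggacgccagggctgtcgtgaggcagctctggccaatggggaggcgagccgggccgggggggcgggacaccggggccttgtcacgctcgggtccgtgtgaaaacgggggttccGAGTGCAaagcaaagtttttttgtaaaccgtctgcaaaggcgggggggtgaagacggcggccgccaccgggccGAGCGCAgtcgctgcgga
The interval for Slc39a12 is chr17:82262107-82262356 (plus strand), with no match.
Slc39a12: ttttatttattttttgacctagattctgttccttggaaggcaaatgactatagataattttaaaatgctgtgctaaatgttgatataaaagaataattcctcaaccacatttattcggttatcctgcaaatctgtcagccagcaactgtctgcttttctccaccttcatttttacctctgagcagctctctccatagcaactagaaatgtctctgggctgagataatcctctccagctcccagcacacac

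Among 33469 promoters of the same length, 20.6% held at least 1 match. At least 6 matches, as in Mt1, were present in 0.0269%, at least 4, as in Mt2A, in 0.266%, and at least 3, as in Mt3, in 1.17%. At least 2, as in Slc30a1, were present in 4.90%. A match is a string of letters, not a measured binding site, and the absence of one in Slc39a12 says only that these letters are not in this window.

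Mt2A (ENSRNOG00000043098) had the clearest pattern among the metallothioneins. Its level was 412.83, 297.83 and 292.17 TPM in JA replicates 1 to 3, 419.03, 416.33 and 478.08 TPM in SNI, and 202.56, 262.48 and 233.44 TPM in PLM. All 3 SNI samples were above all 3 JA samples, although JA replicate 1 came close to the lowest SNI sample. All 3 PLM samples were below all samples of the other groups. Mt2A averaged 334.3 ± 68.1 TPM in the JA group, 437.8 ± 34.9 TPM in the SNI group and 232.8 ± 30.0 TPM in the PLM group (SD, n = 3), so that the PLM mean was 0.532 of the SNI mean. Differences were tested with limma on log2(TPM + 1), with Benjamini-Hochberg adjustment over all tested loci, and differences below are on that log2 scale. Mt2A was lower in PLM than in SNI by a log2 difference of -0.91 (SE 0.11, 95% CI -1.17 to -0.65, limma adjusted p = 0.00906).

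That call has to be read against a shift of the whole table. In PLM against SNI the median log2 difference of all tested loci was -0.21, and 13.9% of loci were called at an adjusted p under 0.05, 13.6% lower and 0.246% higher. The 13 mitochondrial protein genes made up on average 29.1% of the total in JA samples, 24.6% in SNI samples and 32.0% in PLM samples, and TPM sums to the same total in each sample. When TPM was rescaled without these genes, the median difference was -0.084 and 67.2% of loci were below 0, against 85.0% as deposited. When each sample was centred on its median, the median difference of all loci was 0.04 and 0.814% of loci were called. The rescaled difference of Mt2A was -0.77 (SE 0.10, limma adjusted p = 0.0254), which still passed, as 283 of 16055 loci did. The centred difference of Mt2A was -0.67 (SE 0.11, limma adjusted p = 0.0581), which no longer passed. Centred Mt2A values in PLM were still below every centred SNI value, a lack of overlap that 9.73% of all loci had in that direction.

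Mt3 (ENSRNOG00000018958), a copper- and zinc-binding protein of neurons and astrocytes, was at 2404.03, 1948.14 and 2086.54 TPM in JA, 2221.41, 2361.88 and 2599.37 TPM in SNI and 1986.39, 1938.52 and 1798.04 TPM in PLM. The highest PLM sample, at 1986.39 TPM, was below the lowest SNI sample, at 2221.41 TPM, and it alone lay within the JA range. Mt3 averaged 2146 ± 233.7 TPM in the JA group, 2394 ± 191.0 TPM in the SNI group and 1908 ± 97.9 TPM in the PLM group (SD, n = 3). As deposited, Mt3 was lower in PLM than in SNI by -0.33 (SE 0.08, 95% CI -0.51 to -0.14, limma adjusted p = 0.0419). With median-centred values the difference was -0.08 (limma adjusted p = 0.754), and the call was also lost whichever single sample was left out (adjusted p from 0.0655 to 0.111).

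Mt1 (ENSRNOG00000038047) was at 61.33, 50.77 and 58.02 TPM in JA, 77.52, 57.27 and 70.50 TPM in SNI and 60.94, 54.25 and 47.53 TPM in PLM. The PLM range overlapped that of both other groups. The group means were 56.7 ± 5.40, 68.4 ± 10.3 and 54.2 ± 6.71 TPM (SD, n = 3). PLM against SNI gave -0.33 (SE 0.14, 95% CI -0.66 to 0.0036, limma adjusted p = 0.138), the same estimate as Mt3 with a wider error, and -0.08 when centred (adjusted p = 0.833).

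Ratios within a sample are free of the scaling between samples, and were computed after the values had been seen. The ratio of Mt2A to Mt3 was 0.172, 0.153 and 0.140 in JA, 0.189, 0.176 and 0.184 in SNI and 0.102, 0.135 and 0.130 in PLM. The 3 groups did not overlap, with SNI highest and PLM lowest. The means were 0.155 ± 0.0159, 0.183 ± 0.00624 and 0.122 ± 0.0179 (SD, n = 3). As the ratios were chosen after the values were seen, they are a description with no test. They reuse the Mt2A values given above. How many other loci have a ratio to Mt3 or Mt1 that separates the groups was not computed. Of all loci when centred, 9.73% had PLM below SNI without overlap and 14.1% had PLM above SNI. The ratio of Mt2A to Mt1 averaged 5.88 in JA, 6.49 in SNI and 4.36 in PLM, and PLM did not overlap either other group. The ratio of Mt1 to Mt3 averaged 0.0265, 0.0288 and 0.0284, with PLM overlapping both other groups.

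**Figure D2:**
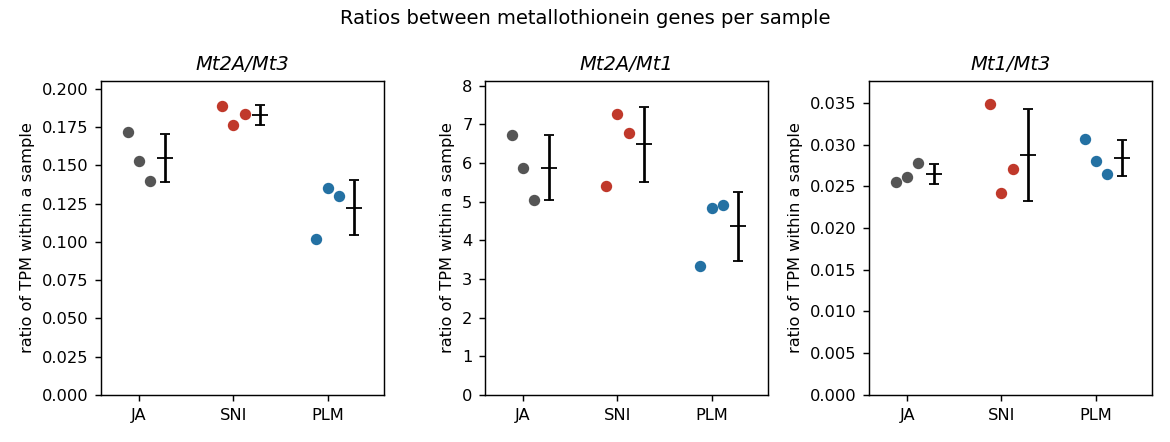
Within-sample TPM ratios of Mt2A to Mt3, Mt2A to Mt1 and Mt1 to Mt3 (vertical axes, no unit, starting at 0) in each group, where points are replicates 1 to 3 from left to right and bars are the mean ± SD. The Mt2A to Mt3 ratio was 0.102 to 0.135 in PLM, below every SNI and JA sample, and the Mt1 to Mt3 ratio overlapped between groups.

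The exporters did not differ detectably between groups. Slc30a1 (ZnT1, ENSRNOG00000004749), which carries zinc across the plasma membrane, was at 7.25, 9.18 and 5.32 TPM in JA, 8.52, 7.35 and 6.33 TPM in SNI and 5.25, 8.62 and 8.41 TPM in PLM. The 3 groups overlapped widely, and the means were 7.25 ± 1.93, 7.40 ± 1.10 and 7.43 ± 1.89 TPM (SD, n = 3). PLM against SNI gave -0.01 (SE 0.19, 95% CI -0.48 to 0.45, limma adjusted p = 0.961), an interval that leaves room for a difference in either direction, and 0.23 when centred (adjusted p = 0.527).

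Slc30a10 (ZnT10, ENSRNOG00000002397), which is known mainly as a manganese exporter, was at 8.84, 8.94 and 7.49 TPM in JA, 10.25, 8.49 and 9.78 TPM in SNI and 8.14, 9.07 and 7.44 TPM in PLM. SNI was highest on average but overlapped both other groups. The means were 8.42 ± 0.810, 9.51 ± 0.911 and 8.22 ± 0.818 TPM (SD, n = 3). PLM against SNI gave -0.19 (SE 0.10, 95% CI -0.44 to 0.06, limma adjusted p = 0.227) and 0.06 when centred (adjusted p = 0.823).

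Slc39a12 (ZIP12, ENSRNOG00000025639), a zinc importer of the nervous system, was the most variable member. It was at 12.64, 1.34 and 4.19 TPM in JA, 22.90, 23.36 and 9.19 TPM in SNI and 0.62, 8.91 and 0.63 TPM in PLM. PLM replicates 1 and 3 were the lowest of the 9 samples, whereas PLM replicate 2 lay just under the lowest SNI sample. JA spanned a 9.43-fold range, PLM a 14.4-fold range and SNI a 2.54-fold range. The pooled SD within groups was 1.21 on the log2 scale, against a median of 0.165 for all loci, and only 2.32% of loci (360 of 15503) had one at least as large. Those of the other 6 members lay between 0.119 for Mt3 and 0.304 for Slc30a1.

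Slc39a12 averaged 6.06 ± 5.88 TPM in the JA group, 18.5 ± 8.05 TPM in the SNI group and 3.39 ± 4.78 TPM in the PLM group (SD, n = 3), and the PLM mean was 0.183 of the SNI mean. The log2 difference of PLM from SNI was -2.61 (SE 0.76, 95% CI -4.44 to -0.78), the largest of the 7 members, yet the limma adjusted p was 0.0655. Without PLM replicate 2 it was -3.48 with an adjusted p of 0.0302, and without any other single sample the adjusted p was 0.0877 to 0.184. Centred, it was -2.36 (adjusted p = 0.205). Slc39a12 met the looser rule of an unadjusted p under 0.05 with an absolute log2 difference above 1, as deposited and centred, and was the sole member to do so. This rule takes 1.42% of all loci lower as deposited and 0.659% centred.

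Slc39a14 (ZIP14, ENSRNOG00000009832), an importer of zinc, manganese and iron, was at 3.89, 3.19 and 2.69 TPM in JA, 4.44, 3.54 and 4.46 TPM in SNI and 3.38, 3.13 and 3.23 TPM in PLM. All PLM samples were below all SNI samples, the nearest pair being 3.38 and 3.54 TPM. The means were 3.26 ± 0.603, 4.15 ± 0.525 and 3.25 ± 0.126 TPM (SD, n = 3). PLM against SNI gave -0.27 (SE 0.11, 95% CI -0.54 to -0.0038, limma adjusted p = 0.131) and -0.03 when centred (adjusted p = 0.934).

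In PLM against SNI as deposited, then, 2 of 7 tested members were called (Mt2A and Mt3, both lower), beside 13.9% of all loci. All 7 estimates were below 0, as were those of 85.0% of loci, and the median of the members was -0.33. Groups did not overlap, with PLM lower, in 4 of 7 (Mt2A, Mt3, Slc39a12 and Slc39a14), against 41.9% of loci. With centred values 0 of 7 were called by limma, 2 of 7 had an unadjusted p under 0.05 (Mt2A and Slc39a12) beside 16.9% of loci, and the median was -0.08. Mt2A alone then kept groups without overlap.

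**Figure D3:**
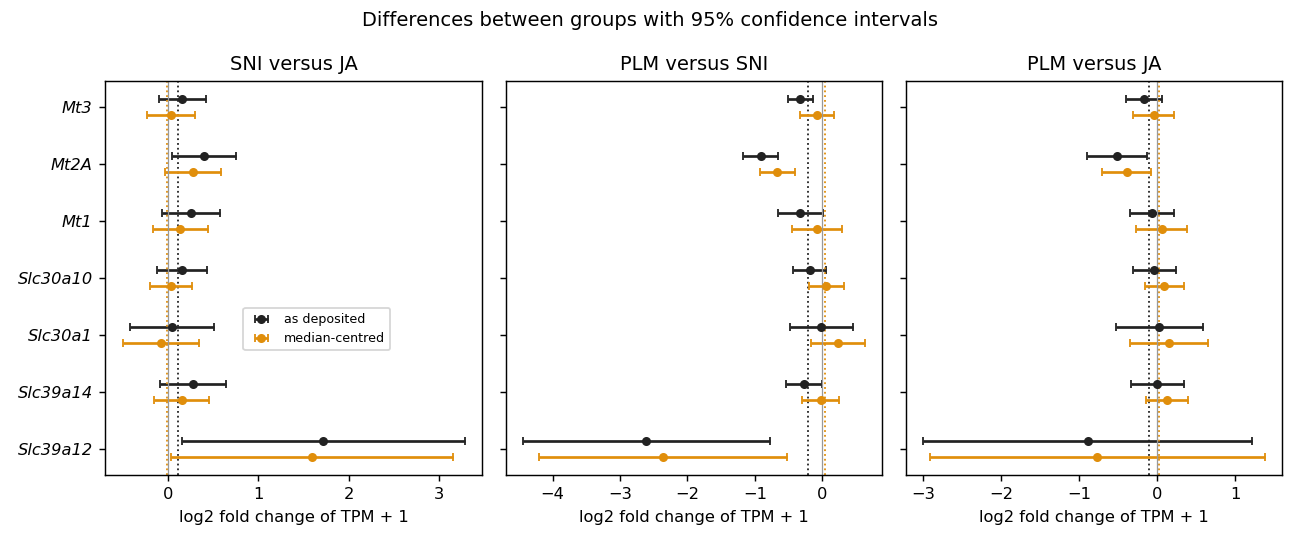
Log2 difference with its 95% confidence interval (horizontal axes, log2 scale) of each tested member in each comparison, as deposited (black) and median-centred (orange), where dotted lines are the medians of all tested loci. In PLM against SNI, centring moved Mt3 from -0.33 to -0.08 and Mt2A from -0.91 to -0.67, and the intervals of Slc39a12 were the widest.

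No member was called in SNI against JA. Mt2A was higher by 0.40 (95% CI 0.05 to 0.76), with a limma adjusted p of 0.614, and centring brought it to 0.28. Slc39a12 was higher by 1.72 (SE 0.66, limma adjusted p = 0.614), ranging from 1.11 without JA replicate 2 to 2.38 without JA replicate 1. Mt1, Mt3, Slc30a1, Slc30a10 and Slc39a14 had estimates of 0.26, 0.16, 0.04, 0.16 and 0.28. With a sample left out, Mt1 ranged from 0.17 to 0.38 and Mt3 from 0.093 to 0.24. Slc30a1 then ranged from -0.13 to 0.21, Slc30a10 from 0.084 to 0.23 and Slc39a14 from 0.18 to 0.38. By limma 0 of 15557 loci (0%) passed the adjusted threshold, whereas 7.10% of loci and 2 of 7 members (Mt2A and Slc39a12) had an unadjusted p under 0.05. Mt2A was the sole member whose groups did not overlap, a property that 12.1% of loci had with SNI higher, and its groups overlapped when centred. Slc39a12 was the sole member to meet the looser rule, with SNI higher, beside 0.495% of loci.

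In PLM against JA, 0 of 7 members were called by limma, beside 0.0195% of loci. Mt2A was the sole member with an unadjusted p under 0.05, as 11.8% of loci had. It was lower by -0.51 (95% CI -0.90 to -0.12, limma adjusted p = 0.370) with no overlap, as deposited and centred, and PLM was lower without overlap in 15.7% and 6.93% of loci. Slc39a12 had an estimate of -0.89 with overlapping groups, which ranged from -0.23 without JA replicate 1 to -1.76 without PLM replicate 2. The other 5 members lay between -0.17 and 0.03.

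The other zinc genes were read as a list. Of 23 other loci for zinc transport or sensing, 17 passed the filter, and in PLM against SNI 2 of 17 were called lower and 0 called higher, beside 13.6% and 0.246% of all loci. In all, 16 of 17 estimates were below 0, beside 85.0% of all loci. Slc39a1 (ZIP1), a plasma membrane importer, went from 28.8 ± 1.09 TPM in SNI to 21.4 ± 0.671 in PLM (SD, n = 3), a difference of -0.41 (SE 0.06, limma adjusted p = 0.0176), and its centred adjusted p was 0.237. Slc39a7 (ZIP7), which releases zinc from the endoplasmic reticulum, went from 55.6 ± 1.92 to 44.1 ± 1.11 TPM, a difference of -0.33 (limma adjusted p = 0.0233; centred 0.530). The median of the 17 was -0.27 as deposited and -0.02 centred, against -0.21 and 0.04 for all loci. No locus of this list was called by limma in the other comparisons.

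Slc30a3 (ZnT3), which loads zinc into synaptic vesicles, differed by -0.15 (limma adjusted p = 0.256; centred 0.10 in the opposite direction). Mtf1 was listed at 0.01 TPM in JA replicate 1, at 0.47 TPM in SNI replicate 1 and at 0 in the other 7 samples, so no comparison was made. Mt4, the form of stratified epithelia, was listed at 0 in all 9 samples.

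Metallothioneins also hold copper and answer to other signals, and lists of those genes were read in the same way. In PLM against SNI, 12 of 14 copper-handling genes had estimates below 0, and 4 were called lower and 0 called higher, beside 13.6% and 0.246% of all loci: Heph, a ferroxidase, by -0.57 (limma adjusted p = 0.0225), Steap3 by -0.58 (0.0291) and Steap2 by -0.40 (0.0254), which are metalloreductases, and Slc31a1, the copper importer Ctr1, by -0.39 (0.0259). The list's median turned from -0.19 as deposited to 0.058 when centred, where 5 of 14 estimates were below 0 and 0 passed limma. Of all loci, 85.0% were below 0 as deposited and 42.4% centred. Of 12 glucocorticoid-induced genes, 11 had estimates below 0, beside 85.0% of all loci, and 1 was called lower (Klf9), beside the same 13.6% of loci. The list median was -0.40 as deposited and -0.15 centred, where 10 of 12 were below 0, beside 42.4% of all loci. In SNI against JA, 1 of these 12 genes was below 0 (median 0.39, centred 0.27), beside 23.6% of all loci as deposited. No gene of either list was called higher as deposited, and none was called by limma when centred.

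**Figure D4:**
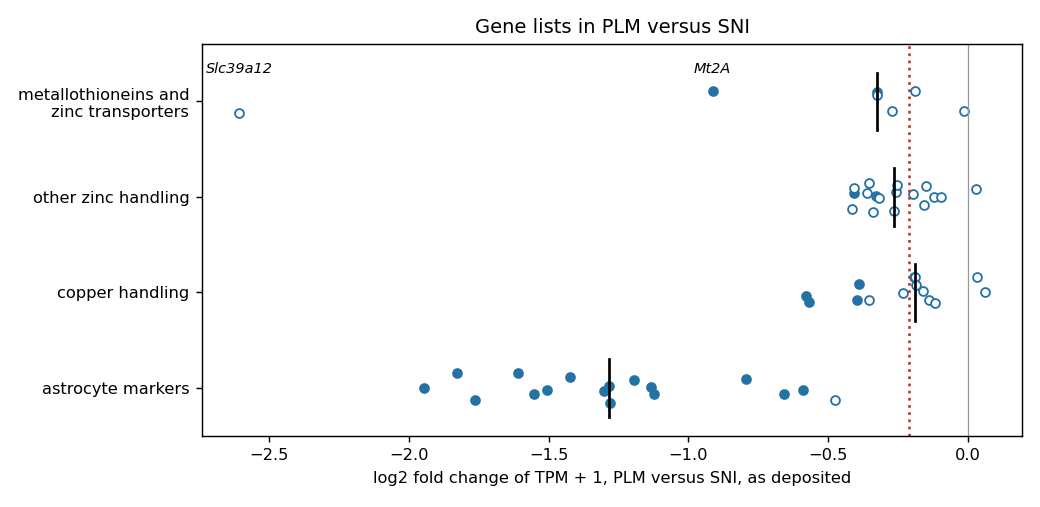
Log2 difference of PLM from SNI as deposited (horizontal axis, log2 scale) for the members, the other zinc genes, the copper genes and the astrocyte markers, where each point is a gene (filled where called), each black bar is a list's median and the dotted line is the median of all loci. The astrocyte markers, with a median of -1.28, stood furthest below 0.

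Markers of astrocytes were lower in PLM than in SNI as well. All 17 astrocyte markers were detected, and none was at 0 in all samples. In PLM against SNI all 17 estimates were below 0, beside 85.0% of all loci. Their median was -1.28 and their range from -1.95 to -0.47. Of these, 16 of 17 were called lower, beside 13.6% of all loci. With centred values all 17 were still below 0, beside 42.4% of all loci, and 11 of 17 were called, beside 0.814%. Their summed level was 5613 to 9403 TPM in JA, 8284 to 9620 TPM in SNI and 4448 to 5170 TPM in PLM. All 17 estimates lay below that of Mt3, and the Slc39a12 estimate lay below all of them. In PLM against JA all 17 astrocyte estimates were below 0 (median -0.89, centred -0.76), beside 71.2% of all loci as deposited. In SNI against JA all 17 were above 0 (median 0.44). There only 23.6% of all loci were below 0, and the median of all loci was 0.12. Centred, the astrocyte median was 0.32 and 3 of 17 were below 0, beside 51.4% of all loci. All 13 neuron markers were also above 0 in SNI against JA (median 0.36, centred 0.24). The part of these markers in the results for Mt2A, Mt3 and Slc39a12 was not tested, and in bulk tissue fewer cells of a type and less RNA per cell cannot be told apart.

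The tissue markers were as labelled: neuron markers summed to 4125 to 9231 TPM and oligodendrocyte markers to 46386 to 56592 TPM over the 9 samples. In PLM against SNI, limma called 0 of 13 neuron, 0 of 9 oligodendrocyte, 0 of 6 endothelial, 0 of 5 ependymal, 0 of 5 Schwann cell and 0 of 7 blood cell markers. The blood cell markers, though none was called, all had estimates above 0 (median 0.76), and their sum was 4342 to 7432 TPM in SNI, 8253 to 11765 TPM in PLM and 5665 to 12295 TPM in JA. The SNI and PLM sums did not overlap, and their part in the results for the members was not tested. Limma called 1 of 9 microglial markers (Tmem119) and 2 of 7 meningeal and fibroblast markers (Igf2 and Slc6a13), all lower, and these counts stand beside 13.6% of all loci called lower. When centred, no marker of these lists was called by limma, and the neuron median turned from -0.21 to 0.04. Estimates below 0 went from 5 to 0 of 9 oligodendrocyte, from 2 to 0 of 6 endothelial, from 4 to 1 of 9 microglial and from 4 to 2 of 5 ependymal markers. All 7 meningeal and fibroblast markers stayed below 0 (median -0.58 as deposited, -0.33 centred). All 5 Schwann cell markers did so too (-0.67 and -0.42). The blood cell median was 1.00 when centred. Of all loci, 85.0% were below 0 as deposited and 42.4% centred. The sum of Schwann cell markers, a sign of nerve root in the dissected piece, ranged from 60.6 to 6290 TPM within JA, from 417.0 to 3571 TPM within SNI and from 182.2 to 2635 TPM within PLM.

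Across the 9 samples, the median-centred log2 level of Mt2A ran with the mean of the astrocyte markers at Pearson r = 0.821 and with Slc39a12 at r = 0.795. For Slc39a12 and the astrocyte mean r was 0.639. It was 0.278 for Mt3, 0.181 for Slc39a14, 0.0973 for Mt1, -0.109 for Slc30a10 and -0.256 for Slc30a1. Among the metallothioneins r was 0.158 for Mt1 and Mt2A, 0.454 for Mt2A and Mt3 and 0.530 for Mt1 and Mt3. Mt3 and Slc30a1 ran in opposite directions (r = -0.810). These are descriptions over 9 samples that share the groups and the scaling, not tests.

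Among 13264 named genes, the 3 with the pattern most like Mt2A by the same measure were Osbpl9 (r = 0.936), Cyp7b1 (0.935) and Tpi1 (0.931). For Mt3 they were Eif3i (0.937), Pctp (0.916) and Nagk (0.896), and for Mt1 Comtd1 (0.953), Paqr3 (0.928) and Dclk2 (0.925). For Slc39a12 they were Fam3c (0.933), Vps26b (0.932) and Neu3 (0.912), and for Slc39a14 Esrra (0.976), Gsk3a (0.938) and Zzef1 (0.925). For Slc30a1 they were Zfp366 (0.938), Tmem121 (0.937) and Celf1 (0.925), and for Slc30a10 Letmd1 (0.962), Fam155b (0.935) and Cacna1g (0.932). No gene appeared among the nearest 3 of more than 1 member. These genes were picked as the highest of 13264 over only 9 samples, so their r values are descriptions, not tests.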

How the data were processed

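Total RNA of 9 samples was sequenced and the authors deposited 1 table of TPM values. By the study's methods, reads were aligned with HISAT2 2.0 and expression was computed with StringTie 1.3.3b. The submitters' processing notes name fastp 0.19.5, CASAVA and GRCh38.p13, a human build, while the identifiers are rat Ensembl genes. The rat build is not given in the sources used here. No counts were used, so each column summed to 1e+06 and kept no depth.

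Each comparison used its 6 samples in limma 3.58.1 (R 4.3.3, empirical Bayes with a trend) on log2(TPM + 1), after removing loci whose mean was under 1 TPM, with an adjusted p under 0.05 as the threshold. Alternatives were centring on each sample's median, rescaling without mitochondrial genes, a pseudocount of 0.1, other filters, a fit to all 9 samples, a replicate block, leaving out each sample, and the study's thresholds. Centring combined with the block or with a sample left out was added after seeing the data. Named genes were all members, Mtf1, Slc30a3, called zinc and copper genes (up to 6 per comparison) and the 3 nearest genes per member; Mt4 and the called genes of the glucocorticoid, microglial and meningeal lists were named after their values were seen. Members and lists were chosen with earlier results of these data known. Samples are labelled as biological replicates, and the number of animals behind each is not given.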

Additional observations from a re-analysis of the deposited data

How the results depend on the processing

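In PLM against SNI, 2 members were called. The count was 1 with the study's thresholds (Slc39a12, since Mt2A lies under the fold threshold), 1 after rescaling without the mitochondrial protein genes, 1 with no filter and 1 in the fit to all 9 samples (Mt2A each time), 0 with centred values, and 1 to 2 when a sample was left out. As deposited, Mt2A was called whichever sample was left out (limma adjusted p 0.0275 to 0.0415), joined by Slc39a12 without PLM replicate 2. The 2 other zinc genes called became 0 with the study's thresholds, 0 centred, 0 rescaled, 4 with a pseudocount of 0.1, 4 with 1 TPM required in every sample, 1 in the fit to all 9 samples, and 0 to 2 with a sample left out. In SNI against JA the study's thresholds took 1 member (Slc39a12) instead of 0. The cause of these changes was not tested. Over all loci, PLM against SNI gave 2148 calls (2110 lower, 38 higher), 126 centred (106 lower, 20 higher), 283 rescaled, 1258 with no filter, 2214 with a pseudocount of 0.1, 2639 with 1 TPM required in every sample, 471 in the fit to all 9 samples and 275 to 1494 with a sample left out. The 126 centred calls became 0 to 85 with a sample left out. The centred Mt2A difference was -0.75 to -0.59 with a sample left out (limma adjusted p 0.120 to 0.158). The strict filter dropped Slc39a12 from the comparisons with PLM.

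Signs reversed for small differences. Centred values gave 0.23 for Slc30a1 and 0.058 for Slc30a10 in PLM against SNI, -0.077 for Slc30a1 in SNI against JA, and 0.058 for Mt1 and 0.092 for Slc30a10 in PLM against JA. Rescaled values gave 0.12 for Slc30a1 in PLM against SNI, -0.036 for Slc30a1 in SNI against JA and 0.020 for Slc30a10 in PLM against JA. With a sample left out, Slc30a1 ranged from -0.12 to 0.19 in PLM against SNI, from -0.13 to 0.21 in SNI against JA and from -0.15 to 0.23 in PLM against JA. In PLM against JA, Slc30a10 ranged from -0.11 to 0.030, Slc39a14 from -0.092 to 0.11 and Mt1 from -0.15 to 0.024.

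Replicate numbers are shared between groups, and deviations of samples with the same number had correlations from -0.0508 to 0.123. With 3 samples per group these values cannot show whether a number marks a shared batch or pairing. With the replicate block, PLM against SNI gave 152 calls over all loci, 1 member (Mt2A) and 0 other zinc genes, and 0 calls over all loci by limma when centred, where 1928 loci had an unadjusted p under 0.05. Not every sample was most like the one with its own number.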
